A study of Mus musculus with 15 samples.

Results

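Aminoacyl-tRNA synthetases are the enzymes that join each amino acid to its transfer RNA, the step that gives the ribosome correctly charged tRNAs. Most amino acids have a cytosolic enzyme and a separate mitochondrial one, both encoded in the nucleus, and the mitochondrial enzymes serve the small set of respiratory chain proteins that are translated inside the organelle. In muscle, a tissue rich in mitochondria, several of the mitochondrial enzymes are known from inherited human disease of the organelle. Messages of this family were followed in C2C12 myotubes, with 36 members taken by gene symbol from the 42807 symbols of the count table. By name and known location, 16 are mitochondrial enzymes (their symbols end in 2, though Tarsl2 also does and is cytosolic) and 20 are cytosolic ones. Gars and Kars, counted here as cytosolic, are known to supply both compartments. Lars2, the mitochondrial leucyl-tRNA synthetase, was the reason for the choice: the family was chosen by the measured rise of Lars2 counts at every JGT dose against vehicle in these libraries. The values of Lars2 are therefore given as a description with no test, and it is left out of every count of called members below, which leaves 35.

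The C2C12 line consists of mouse myoblasts that stop dividing and fuse to myotubes, long cells with many nuclei, once serum is reduced. The myotubes had differentiated for 6 days and were then kept for 24 h with no treatment, with vehicle (0.1% DMSO), or with the herbal preparation JGT at 20, 100 or 500 µg/mL, hereafter JGT20, JGT100 and JGT500. The letters stand for Jakyak-gamcho-tang, roots of peony and licorice extracted in hot water. The highest dose was the one estimated to leave 80% of myotubes viable. Each of the 5 groups had 3 libraries, 15 in all, and all groups share the line, the differentiation and the harvest time. The series concerns muscle atrophy caused by dexamethasone, but none of these libraries is labelled with that drug, so the comparisons show JGT alone against untreated or vehicle-treated myotubes. Separate cultures behind the 3 libraries of each group are not stated in the labels, so p-values measure only the spread between these libraries. The JGT stock contained DMSO, and the labels do not say whether its concentration was kept equal across doses. The titles of all 15 libraries carry the same batch label, but the 6 control libraries have sample codes of 1 series, and the 9 JGT libraries codes of another. A difference between JGT and the controls therefore cannot be told apart from whatever that coding stands for, which does not apply to differences between doses.

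Library totals ran from 26012844 to 36854199 counts, with a median of 29613890. Myotube markers were present in every library: 7 of the 8 listed (the other, Mymk, was not analysed here) summed to between 15773 and 17857 CPM (counts scaled to library size). Adipocyte and macrophage lists stayed at or below 0.18 and 1.54 CPM. The 5 markers of proliferating myoblasts summed to 122 to 133 CPM in JGT500, against 261 to 262 CPM in vehicle, and the 3 fibroblast markers to 1069 to 1314 CPM in JGT500, against 1539 to 1582 CPM in vehicle. The fibroblast markers did not move one way: of the 3, Pdgfra was higher (0.71) and Col1a1 lower (log2 fold change -0.46) at 500 µg/mL. The part of these shifts in the synthetase results was not tested, and in bulk RNA fewer cells of a type and less RNA per cell cannot be told apart. Replicate 2 of JGT500 stood apart from replicates 1 and 3 of its group: counts over genes differed between it and them with a mean chi-square per gene of 21.6 and 35.6, while replicates 1 and 3 differed by 8.50, and no other pair within a group exceeded 9.51. Results at 500 µg/mL are therefore also given without it.

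Counts of Lars2 were at about the same level in the non-treated and vehicle groups and about 2-fold higher at every JGT dose. Non-treated libraries held 143, 152 and 153 CPM of Lars2, and vehicle libraries 184, 149 and 155 CPM. The libraries held 330.3, 320.0 and 309 CPM at 20 µg/mL, 307, 315 and 342 CPM at 100 µg/mL, and 297, 323 and 444 CPM at 500 µg/mL. Each of the 9 JGT libraries thus lay above each of the 6 control libraries, while the 3 doses overlapped one another and the JGT500 libraries were the most spread. The log2 fold change was 0.97 for JGT20, 0.98 for JGT100 and 1.12 for JGT500 against vehicle, folds of 1.96, 1.98 and 2.18. These comparisons share the 3 vehicle libraries. Between doses the log2 differences were 0.01 for JGT100 over JGT20, 0.14 for JGT500 over JGT100 and 0.15 for JGT500 over JGT20, and it was 0.12 for vehicle over non-treated. Leaving out any 1 library of the 2 groups compared kept the JGT500 value between 0.93 and 1.23. It did turn the direction of the small JGT500 differences from the lower doses, which ranged from -0.05 to 0.25 over JGT100 and from -0.05 to 0.26 over JGT20. Lars2 also had the largest spread within groups of all 36 members, a coefficient of variation of 11.7%, against a median of 4.88% over the others.

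**Figure D1:**
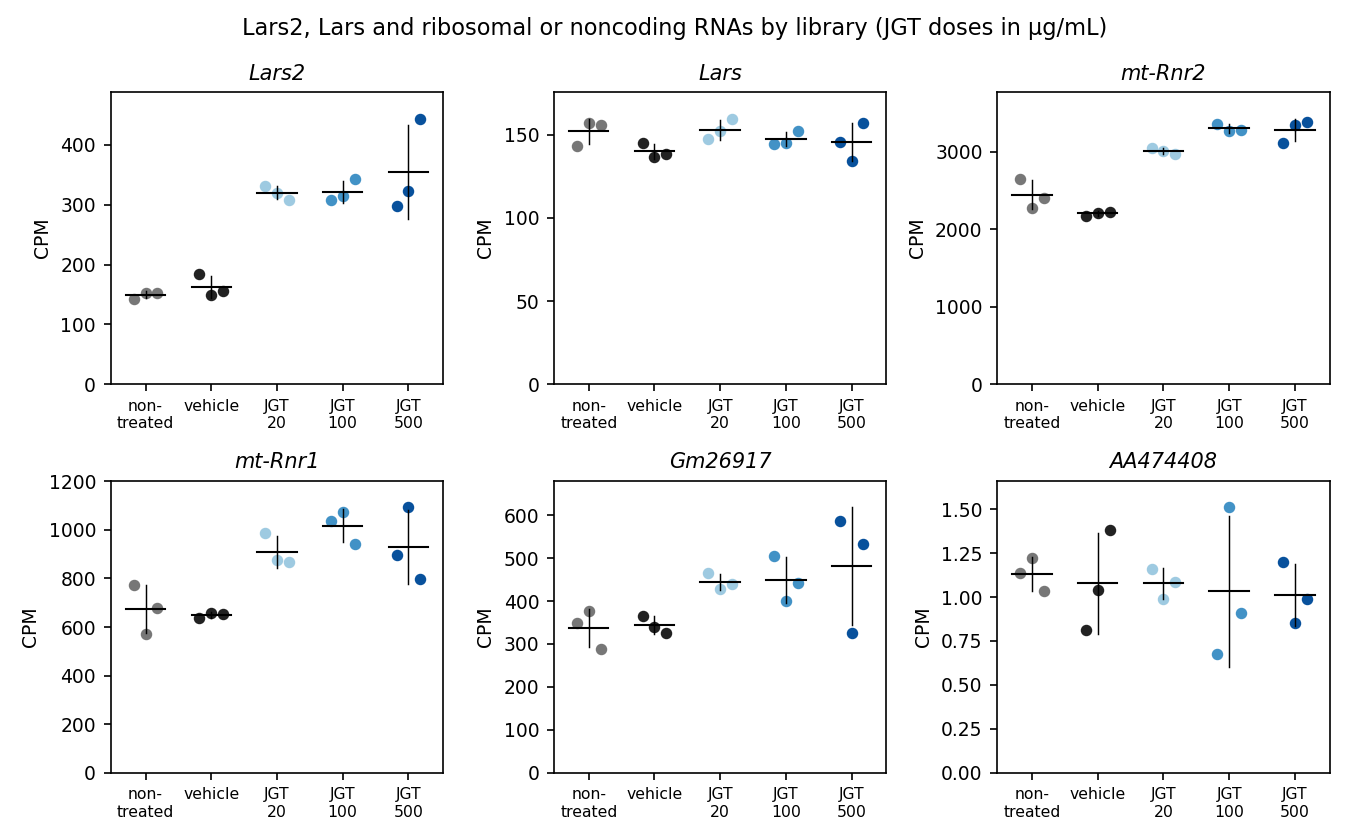
CPM by library (points, replicates 1 to 3 from left to right) with the group mean and SD (lines) for Lars2, its cytosolic counterpart Lars, the 2 mitochondrial ribosomal RNAs, and the noncoding RNAs Gm26917 and AA474408, in 5 groups. The 9 JGT libraries of Lars2 lie between 297 and 444 CPM and the 6 control libraries between 143 and 184 CPM, whereas those of Lars overlap.

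The rise was not seen in any other member at this size or with this separation. None of the other 35 members had all 9 JGT libraries above, or all 9 below, the 6 control libraries. Over all 14461 genes tested, 1.27% had the first pattern and 1.80% the second. Lars, the cytosolic leucyl-tRNA synthetase, had log2 fold changes of 0.13, 0.07 and 0.05 at 20, 100 and 500 µg/mL against vehicle and was not called at any dose. The next largest positive value at 500 µg/mL after that of Lars2 belonged to Fars2, at 0.34. When the 10444 tested genes with a mean of at least 5 CPM were ranked by how closely their log2 CPM relative to vehicle followed that of Lars2 over the 15 libraries, the nearest member, Aars2, stood at rank 583 (root mean square difference 0.68 on the log2 scale).

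The 8 genes nearest to Lars2 by that measure were Greb1 (0.34), Csf2rb (0.38), Malat1 and Adprhl1 (0.40 each), Ikbkg, mt-Rnr2 and Yam1 (0.42 each) and Slc5a5 (0.43). They include an abundant nuclear noncoding RNA (Malat1) and the large ribosomal RNA of the mitochondrion (mt-Rnr2). Since they were picked by their values in the same 15 libraries, those values are a description. Greb1 had log2 fold changes of 0.60, 1.56 and 1.18 at 20, 100 and 500 µg/mL against vehicle, and Ikbkg 0.27, 0.47 and 1.04. Csf2rb had 0.52, 0.94 and 1.68, Adprhl1 0.33, 0.62 and 1.06, Slc5a5 0.45, 1.18 and 1.75, Yam1 0.58, 0.51 and 1.02, and Malat1 0.46, 0.55 and 0.77. In 5 of these genes (Csf2rb, Malat1, Adprhl1, Ikbkg and Slc5a5, named here after their values were seen) the value rose with each dose. The values of Lars2 rose in the same order but lay within 0.15 of each other.

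Per kilobase of transcript, the counts of Lars2 stood with those of the cytosolic enzymes rather than with those of the mitochondrial ones. Levels were divided by the length of the annotated transcript with the longest coding sequence (GENCODE M21). This takes the reads to be spread over that transcript, and where in Lars2 they lay was not tested. Lars2 had 82.1 ± 2.80 CPM per kb at 20 µg/mL, 82.5 ± 4.72 at 100 µg/mL and 91.0 ± 20.1 at 500 µg/mL, each time rank 4 of 36, against 41.8 ± 4.79 CPM per kb and rank 11 in vehicle (SD, n = 3 each). The other 15 mitochondrial enzymes had a median of 5.35 CPM per kb (range 1.52 to 17.0) in JGT500 and 4.84 (1.63 to 15.7) in vehicle. The 20 cytosolic enzymes had a median of 42.4 (3.35 to 133) in JGT500 and 46.1 (3.88 to 119) in vehicle. Gars, Nars and Sars, the glycyl, asparaginyl and seryl enzymes, were the 3 highest in all 5 groups. Tarsl2, a second cytosolic threonyl enzyme, was the 1 cytosolic member that lay among the mitochondrial ones. By counts, Lars2 made up 51.6% ± 1.28, 52.5% ± 1.06 and 53.2% ± 4.81 of all counts of the 16 mitochondrial enzymes at 20, 100 and 500 µg/mL, against 35.8% ± 2.27 in vehicle (SD, n = 3 each). The other 15 summed to 306 ± 11.6 CPM in JGT500, against 291 ± 4.35 CPM in vehicle.

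**Figure D2:**
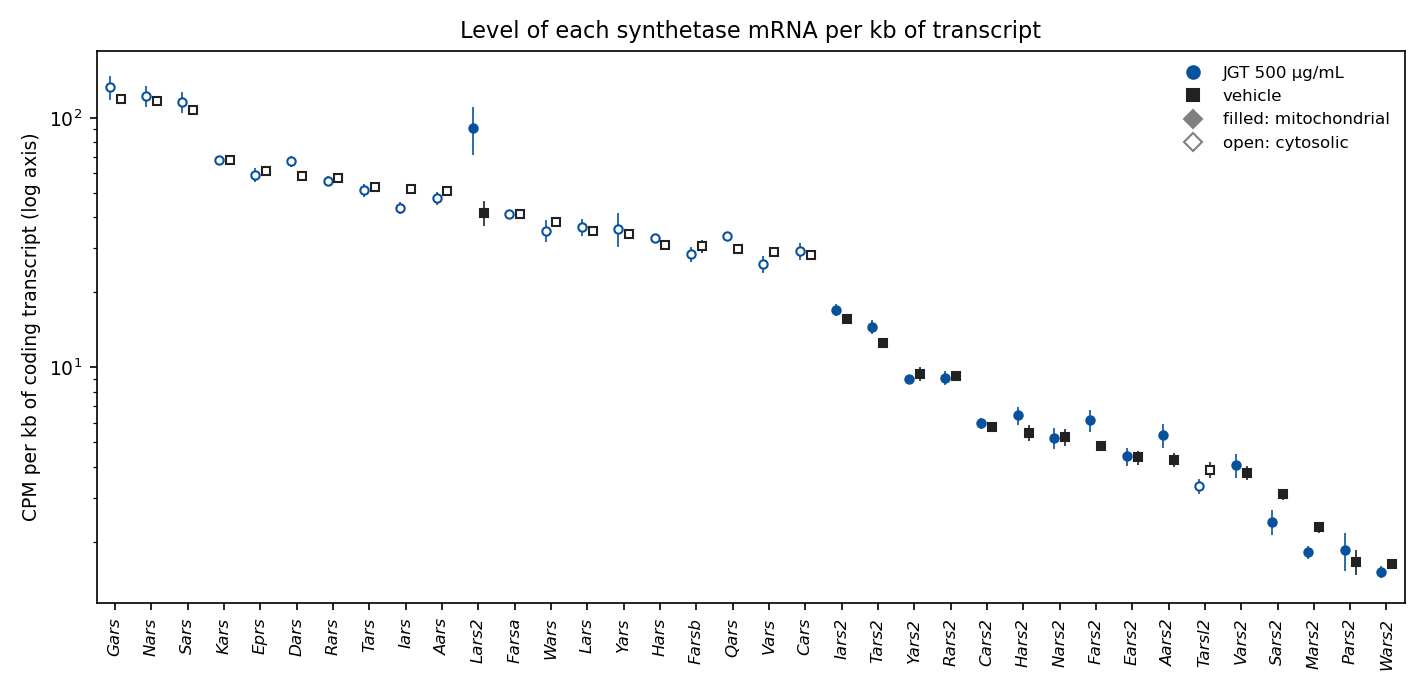
Mean CPM per kilobase of coding transcript (log axis, bars are the SD of 3 libraries) of the 36 members in JGT500 (circles) and vehicle (squares), ordered by the vehicle level; filled symbols are mitochondrial enzymes and open symbols cytosolic ones. Lars2 is the mitochondrial enzyme that lies among the cytosolic group, at 41.8 CPM per kb in vehicle and 91.0 in JGT500.

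The Lars2 transcript carries a stretch that other transcripts share. The gene lies on chromosome 9 (chr9:123366927-123462666, plus strand, GRCm38, GENCODE M21), with no other annotated gene overlapping it. Its transcript Lars2-201 has 21 exons and 3894 bases, with the coding part from base 200 to base 2908 and a 3′ UTR of 986 bases. Bases 3163 to 3349, in the 3′ UTR of the last exon (chr9:123461933-123462119), aligned in BLAST with the noncoding transcript AA474408-201 of chromosome 7, at 80.1% identity over 196 aligned positions. Bases 3278 to 3349 aligned with Gm15564-202 of chromosome 16, at 98.6% identity over 72 positions. In all, 15 transcripts of 8 other genes aligned, each in the 3′ UTR. Those of Hunk, Eif2b3, Mfsd2b, Ifitm10, Phka1 and Gm37552 aligned elsewhere, between bases 3736 and 3826, at 75.6% to 88.2% identity. Among them, the transcripts of Hunk, Mfsd2b and Gm37552 aligned in the opposite orientation. The longest run common to Lars2-201, AA474408-201 and Gm15564-202 was 36 bases, from base 3278 of Lars2-201. Its first 30 bases are printed, as in AA474408-201, because the same letters are known to occur in the large ribosomal RNA of the cytosolic ribosome, whose reference sequence was not used here.
shared run, first 30 bases: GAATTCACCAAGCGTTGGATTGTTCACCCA

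**Figure D3:**
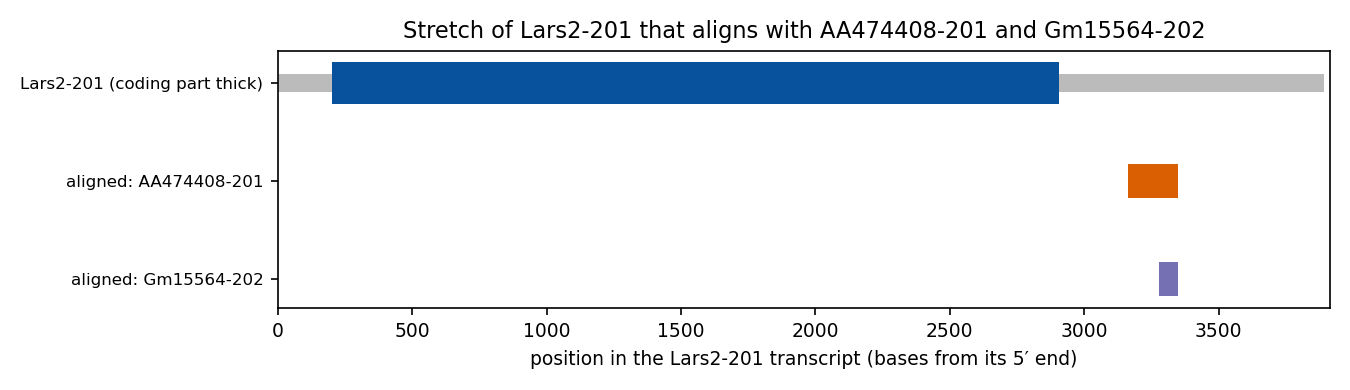
Map of the Lars2-201 transcript in bases from its 5′ end, to scale, with the coding part (thick, bases 200 to 2908), the untranslated ends (thin) and the stretches that aligned with AA474408-201 (bases 3163 to 3349) and Gm15564-202 (bases 3278 to 3349). Both stretches lie in the 3′ UTR.

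Of the genes that share the stretch, AA474408 had few counts and was not called, and Gm15564 had almost none. Levels this low do not show where the Lars2 reads came from. Several ribosomal and abundant noncoding RNAs were higher with JGT. AA474408 had 0.68 to 1.51 CPM over all libraries, with log2 fold changes of 0.00, -0.05 and -0.10 at 20, 100 and 500 µg/mL against vehicle, none called, and Gm15564 had at most 0.06 CPM. The mitochondrial large ribosomal RNA mt-Rnr2 had 2973 to 3043 CPM in JGT20, 3263 to 3362 CPM in JGT100 and 3113 to 3383 CPM in JGT500, against 2172 to 2225 CPM in vehicle and 2275 to 2645 CPM in non-treated libraries. Its log2 fold changes against vehicle were 0.45 ± 0.047, 0.58 ± 0.047 and 0.57 ± 0.047 (SE), with adjusted p = 7.0e-05, 1.8e-07 and 8.1e-09 in edgeR's quasi-likelihood test. Its partner mt-Rnr1 had 0.49, 0.65 and 0.52 and was called at 100 and 500 µg/mL (adjusted p = 0.0129 and 0.00795). The JGT libraries of mt-Rnr2 lay above all control libraries, as those of Lars2 did, and the 2 higher doses overlapped. mt-Rnr2, and Malat1 below, were tested as genes of the ribosomal and noncoding list. Both are also among the genes picked for nearness to Lars2. Their likeness to Lars2 is therefore a description, on which these p-values do not bear. Neither mitochondrial ribosomal RNA aligned with Lars2-201.

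Gm26917, a noncoding gene on chromosome 17 (chr17:39843013-39846341) that ends 12 bases before the ribosomal RNA pseudogene Rn18s-rs5 of RefSeq, was not called at any dose. Its libraries held 586, 325 and 533 CPM in JGT500, against 366, 340.1 and 326 CPM in vehicle, with a log2 fold change of 0.48 ± 0.19 (SE, adjusted p = 0.0755). Replicate 2 of JGT500 alone lay within the control range for it. Malat1 had 0.46, 0.55 and 0.77 and Neat1 reached 0.15 at 500 µg/mL, both called at that dose only (adjusted p = 0.00147 and 0.0420). The listed ribosomal and abundant noncoding RNAs, 12 of 20 in the table, summed to 7144 to 7881 CPM in JGT500, against 4931 to 5068 CPM in vehicle. Besides the 5 above, Rn7sk, Rpph1, Rmrp and Rprl3 stayed at or below 1.05 CPM in every library, and Rny1, Rny3 and Snord118 were at 0 in all 15. The part of ribosomal RNA reads in the Lars2 count was not tested. None of the Lars2 counts was fractional, as they were in some libraries for Cars2, Farsb, Hars, Hars2, Iars2 and Vars2. A whole count does not show which RNA its reads came from.

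At the 2 lower doses 0 and 1 of the other members were called. At 20 µg/mL 0 of 35 members were called by edgeR, where 0.325% of all genes were. An unadjusted p under 0.05 was found for 6 members, and for 1539 of all 14461 genes. DESeq2 called 0 members and 0.657% of all genes. At 100 µg/mL 0 were called higher and 1 lower, where 4.31% of all genes were called, 2.09% higher and 2.22% lower. That gene was Mars2, the mitochondrial methionyl enzyme, with 23.0, 22.1 and 22.1 CPM in JGT100, against 25.7, 24.6 and 27.0 CPM in vehicle. Its log2 fold change was -0.20 ± 0.058 (SE, adjusted p = 0.0488), and the call was lost in 10 of 12 alternative settings. Non-treated libraries held 22.0, 22.9 and 23.5 CPM of Mars2, so those of JGT100 lay below vehicle but within the non-treated range. Between JGT100 and JGT20, 0 members were called by edgeR and by DESeq2, where 0.429% and 0.574% of all genes were. An unadjusted p under 0.05 was found for 1 member, and for 1091 of all 14461 genes.

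The cytosolic enzymes as a list sat slightly lower in vehicle than in the non-treated, JGT20 and JGT100 groups. Against vehicle, 19 of 20 had a positive log2 fold change at 20 µg/mL (median 0.04) and 17 of 20 at 100 µg/mL (median 0.04), beside a median of 0.00 over all genes at either dose. In vehicle over non-treated 4 of 20 were positive (median -0.08; 0.00 over all genes). Summed, the cytosolic enzymes had 3122 to 3272 CPM in JGT20 and 3131 to 3234 CPM in JGT100, against 3024 to 3099 CPM in vehicle and 3219 to 3352 CPM in non-treated libraries. The JGT20 and JGT100 sums therefore lay above those of vehicle and overlapped those of the non-treated group. At 500 µg/mL 10 of 20 were positive, and the sums, 2896 to 3222 CPM in JGT500, overlapped those of vehicle. Vehicle against non-treated called 0 of 35 members in edgeR, where 1.31% of all genes were called (0.553% higher and 0.754% lower). An unadjusted p under 0.05 was found for 9 members, and for 2414 of all 14461 genes. DESeq2 called 2 members and 2.21% of all genes. The 15 mitochondrial enzymes without Lars2 had medians of 0.06 at 20 µg/mL, -0.01 at 100 µg/mL and -0.02 for vehicle over non-treated.

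At 500 µg/mL members moved in both directions, in a share close to that of all genes. Of the 35, 7 were called higher and 4 lower, where 33.3% of all genes were called, 16.5% higher and 16.8% lower. The mitochondrial enzymes had 5 higher and 2 lower of 15 (median log2 fold change 0.05) and the cytosolic ones 2 higher and 2 lower of 20 (median 0.00), beside a median of 0.01 over all genes. Without replicate 2 of JGT500, 17 were called, 12 of them higher, and 43.3% of all genes were. The mitochondrial enzymes then had 6 higher and 2 lower of 15 (median 0.04), and the cytosolic ones 6 higher and 3 lower of 20 (median 0.01). The difference in called members between the compartments thus depended on that library. Without replicate 1 of JGT500, 7 were called and 25.4% of all genes.

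**Figure D4:**
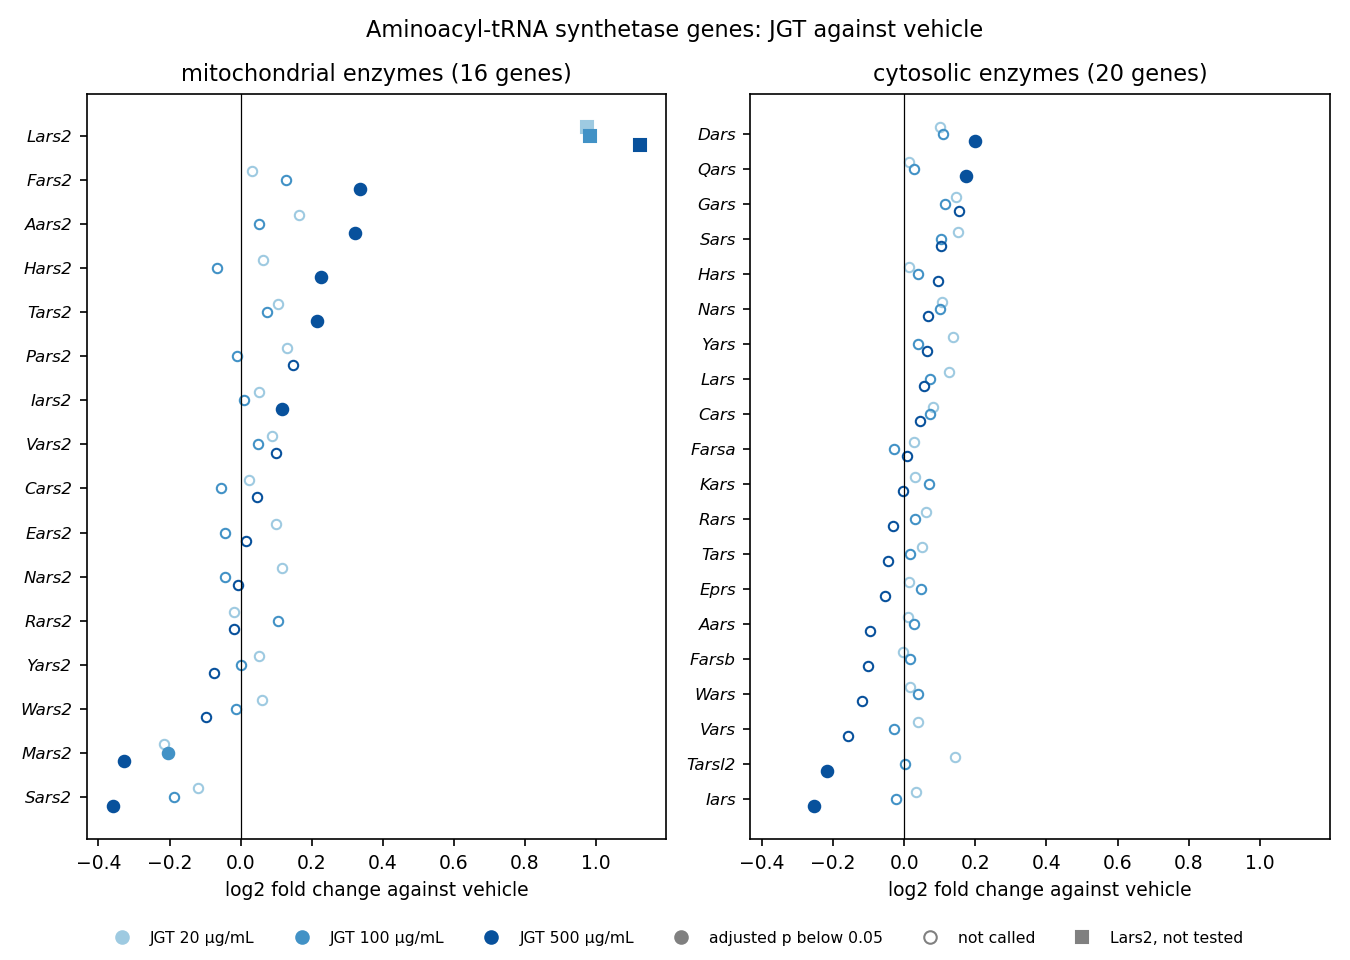
Log2 fold change against vehicle of each member at 20, 100 and 500 µg/mL JGT (light to dark), for 16 mitochondrial enzymes on the left and 20 cytosolic ones on the right, ordered by the value at 500 µg/mL. Filled circles have an adjusted p below 0.05, open circles do not, and squares mark Lars2, which was not tested; Lars2 lies near 1 at each dose and all others within -0.36 and 0.34.

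Fars2 and Aars2, the mitochondrial phenylalanyl and alanyl enzymes, rose the most among the tested members. Fars2 had 13.2, 11.6 and 14.3 CPM in JGT500, against 10.1, 10.3 and 10.5 CPM in vehicle (log2 fold change 0.34 ± 0.079, SE, adjusted p = 0.00256). Aars2 had 19.0, 15.6 and 19.2 CPM in JGT500, against 15.3, 14.0 and 13.6 CPM in vehicle (0.32 ± 0.075, adjusted p = 0.00258). The groups did not overlap for either gene, but replicate 2 of JGT500 was the lowest of its group for both and lay within the non-treated range of Aars2, 15.2 to 16.4 CPM. Tars2, the threonyl enzyme, had 36.3, 32.3 and 36.1 CPM in JGT500, against 30.6, 29.2 and 30.1 CPM in vehicle (0.22 ± 0.054, adjusted p = 0.00401). These 3 calls held in all 12 alternative settings.

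Hars2 and Iars2, the mitochondrial histidyl and isoleucyl enzymes, were called with groups that overlapped. Hars2 had 21.8, 19.5 and 23.0 CPM in JGT500, against 18.1, 17.1 and 19.6 CPM in vehicle (0.23 ± 0.068, adjusted p = 0.0146). Iars2 had 94.5, 86.9 and 96.9 CPM in JGT500, against 87.8, 87.2 and 82.0 CPM in vehicle (0.12 ± 0.044, adjusted p = 0.0481). The call of Hars2 was lost in 5 of 12 alternative settings and that of Iars2 in 10. Hars2 also overlaps its cytosolic counterpart Hars on the opposite strand and is similar to it in sequence, and both had fractional counts in all 15 libraries, so their split is uncertain. Iars2 overlaps Rab3gap2 on the opposite strand and Fars2 overlaps Lyrm4, and no source used here says whether the counting used strand.

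Mars2 and Sars2, the mitochondrial methionyl and seryl enzymes, fell. Mars2 had 19.7, 21.9 and 19.9 CPM in JGT500, against 25.7, 24.6 and 27.0 CPM in vehicle (-0.33 ± 0.059, adjusted p = 0.000213), a call that held in all 12 alternative settings. Sars2, the least abundant of the 11 called members by counts, had 4.61, 4.95 and 3.92 CPM in JGT500, against 5.48, 5.98 and 5.90 CPM in vehicle (-0.36 ± 0.12, adjusted p = 0.0287), and lost its call in 4 of 12 settings. Mars2 in JGT500 also lay below the non-treated libraries, narrowly, and Sars2 did too. The 8 mitochondrial enzymes not called (Cars2, Ears2, Nars2, Pars2, Rars2, Vars2, Wars2 and Yars2) had log2 fold changes from -0.10 (Wars2) to 0.15 (Pars2). Of these, Pars2 was called higher without replicate 2 of JGT500.

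Among the cytosolic enzymes Iars, the isoleucyl enzyme, showed the largest fall and the smallest adjusted p of the family. It had 184, 205 and 189 CPM in JGT500, against 231, 230.4 and 229 CPM in vehicle, a log2 fold change of -0.25 ± 0.037 (SE, adjusted p = 2.4e-05). The 3 JGT500 libraries lay below all 12 others, since Iars had at least 224 CPM in every library of the other groups, and its log2 differences of -0.23 from JGT100 and -0.29 from JGT20 were called as well (adjusted p = 0.000133 and 7.1e-06). Tarsl2 had 10.6, 9.99 and 11.5 CPM in JGT500, against 11.9, 11.8 and 13.4 CPM in vehicle (-0.22 ± 0.075, adjusted p = 0.0308), a call lost in 6 of 12 settings, one of them the fit without replicate 2 of JGT500. It is closely related to Tars, with which its reads could be confused, and neither gene had fractional counts. Tars had -0.05 and was not called.

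Dars and Qars, the aspartyl and glutaminyl enzymes, rose. Dars had 147, 139 and 154 CPM in JGT500, against 130.2, 124 and 128 CPM in vehicle (0.20 ± 0.041, adjusted p = 0.000927). Qars had 97.4, 91.6 and 93.9 CPM in JGT500, against 84.2, 84.2 and 82.6 CPM in vehicle (0.17 ± 0.042, adjusted p = 0.00308). Both calls, like that of Iars, held in all 12 settings, and the JGT500 and vehicle groups did not overlap. For Dars, replicate 2 of JGT500 lay within the non-treated range, 131.5 to 138.9 CPM. Dars was not called against JGT100 or JGT20. Dars, Qars and Iars all belong to the multisynthetase complex, which gathers several cytosolic enzymes on scaffold proteins, so 3 of its 7 listed members were called, 2 higher and 1 lower (median log2 fold change 0.00), beside 33.3% of all genes. The other 4 had -0.05 (Eprs), -0.03 (Rars), 0.00 (Kars) and 0.05 (Lars). The cytosolic enzymes outside the complex that were not called (Aars, Cars, Farsa, Farsb, Gars, Hars, Nars, Sars, Tars, Vars, Wars and Yars) ran from -0.16 (Vars) to 0.16 (Gars). Without replicate 2 of JGT500, Gars, Nars, Sars and Yars were called higher and Farsb and Wars lower, where 43.3% of all genes were called. Without replicate 3 of JGT500, Aars and Vars were called lower, where 25.7% of all genes were called. Of the 2 structural classes into which the enzymes fall, class I had 2 higher and 2 lower of 16 and class II 5 higher and 2 lower of 18, without Lars2 and the bifunctional Eprs, against 16.5% higher and 16.8% lower over all genes.

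**Figure D5:**
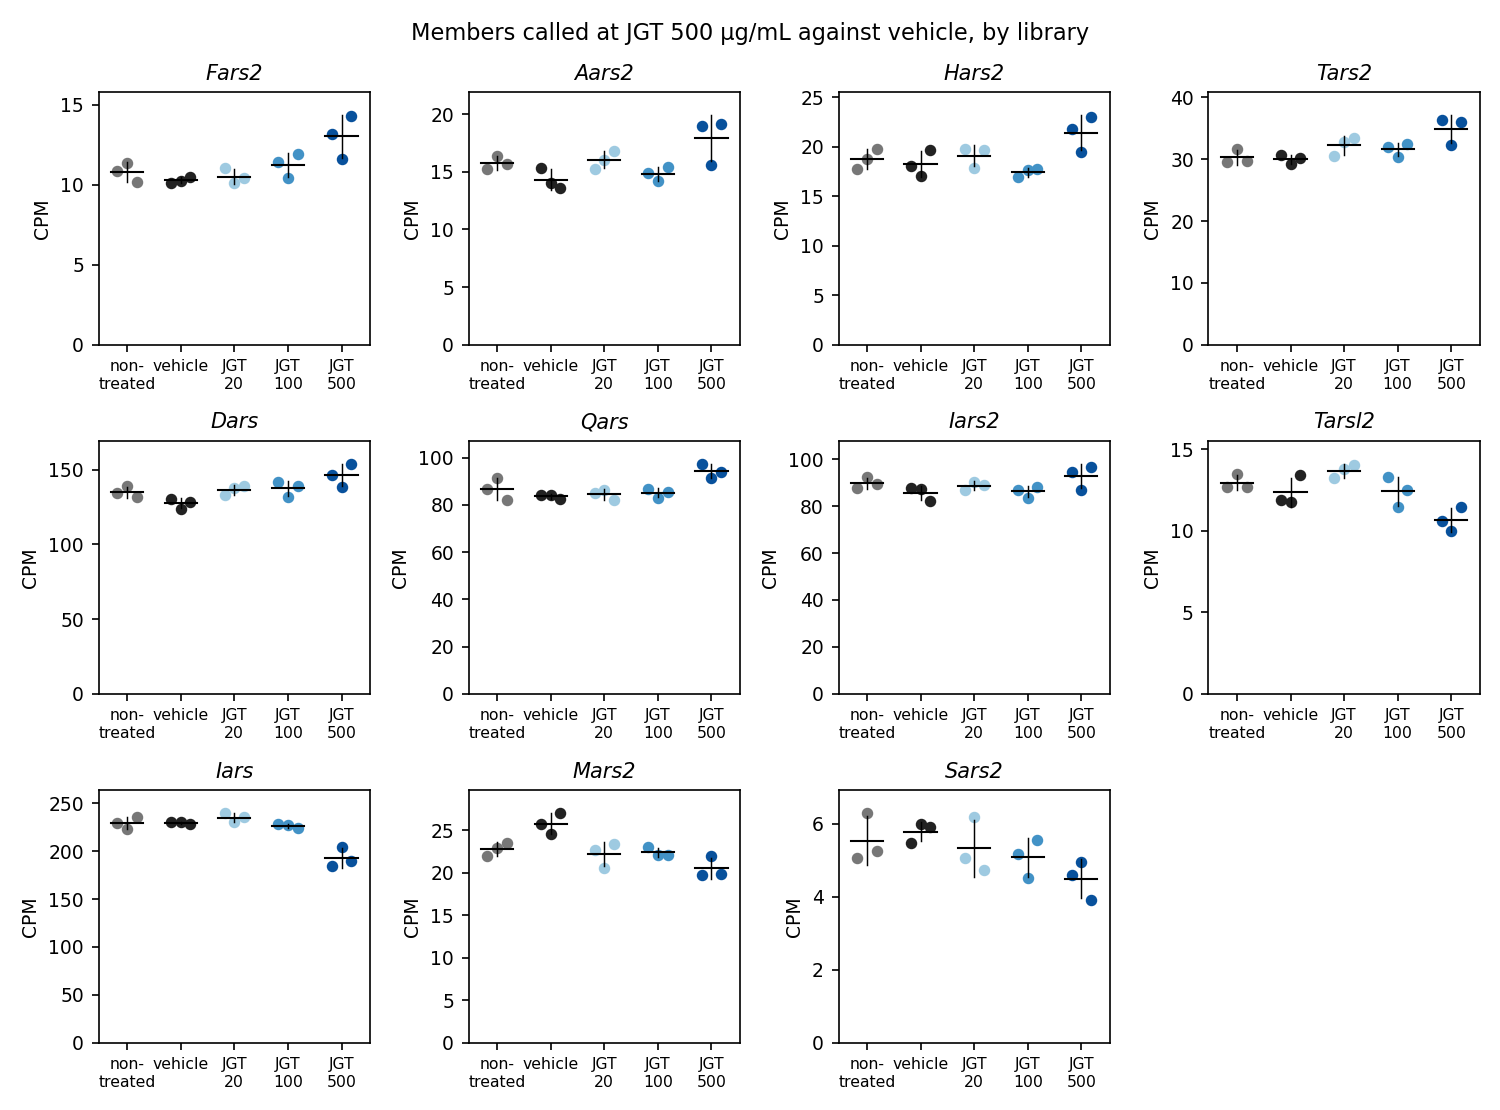
CPM by library (points, replicates 1 to 3 from left to right) with the group mean and SD (lines) for the 11 members called at 500 µg/mL JGT against vehicle, from the largest rise (Fars2, log2 fold change 0.34) to the largest fall (Sars2, -0.36), in all 5 groups. The axes start at 0; the JGT500 libraries of Iars, 184 to 205 CPM, lie below all others, while those of Hars2 and Iars2 overlap vehicle.

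Between doses, JGT500 differed from JGT100 in 6 of 35 members, where 19.7% of all genes were called, 9.05% higher and 10.7% lower. Aars2 (0.27), Hars2 (0.29) and Qars (0.15) were higher, and Aars (-0.12), Iars (-0.23) and Tarsl2 (-0.22) lower. Of these, Hars2 and Iars were called in all 13 alternative settings, whereas Aars2 and Qars each lost the call in 4 and Aars and Tarsl2 each in 7. Deviations of same-numbered libraries of these 2 doses from their group means correlated over genes. A block on the replicate number for them, chosen after seeing the data, kept the 6 called. It added Eprs, Fars2, Iars2, Tars2 and Wars, 11 in all, where 24.6% of all genes were called. Whether these libraries are true pairs was not tested. JGT500 differed from JGT20 in 5, where 23.3% of all genes were called, 11.1% higher and 12.2% lower. Fars2 (0.30) and Qars (0.16) were higher, and Iars (-0.29), Tarsl2 (-0.36) and Vars (-0.20, the valyl enzyme) lower. Iars and Tarsl2 held this call in all 12 settings, Fars2 lost it in 1, Qars in 3 and Vars in 6. Qars, Iars and Tarsl2 were thus called against vehicle and against both lower doses, and only the comparisons between doses are free of the difference in sample coding. Without replicate 2 of JGT500 the counts were 13 against JGT100 and 14 against JGT20, where 34.1% and 35.4% of all genes were called. Without replicate 1 of JGT500 they were 2 and 3, beside 13.1% and 17.3% of all genes. Against JGT100 the count was 3 without replicate 2 or 3 of JGT100 (where 1880 of 14631 and 2198 of 14629 genes were called), and against JGT20 it was 3 without replicate 3 of JGT20 (17.9%).

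Outside the 36, Mars, the cytosolic methionyl enzyme, had log2 fold changes of 0.06, 0.06 and 0.05 at 20, 100 and 500 µg/mL and was not called (adjusted p = 0.471 at 500 µg/mL). It overlaps Ddit3 on the opposite strand. Sepsecs and Pstk, which make selenocysteine on its tRNA, had -0.02 and 0.25 at 500 µg/mL and were not called. Of 14 genes for the scaffold of the complex and relatives of the synthetases, 3 were higher and 1 lower at 500 µg/mL (median -0.02), where 33.3% of all genes were called. The scaffold proteins went apart: Aimp1 had 0.22 ± 0.062 (adjusted p = 0.00960) and Aimp2 -0.26 ± 0.052 (adjusted p = 0.000714). Trnt1, which adds the CCA end to tRNAs, had 0.19, and Aarsd1, an editing relative of the alanyl enzymes, 0.23. No gene of this list was called at 20 or 100 µg/mL in edgeR, where 0.325% and 4.31% of all genes were. An unadjusted p under 0.05 was found for 1 at either dose, and for 1539 and 2306 of all 14461 genes.

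Of 42 genes of the wider machinery of mitochondrial translation, 0 were called at 20 and 100 µg/mL in edgeR. The shares over all genes were 0.325% and 4.31%. An unadjusted p under 0.05 was found for 4 at either dose, and for 1539 and 2306 of all 14461 genes. At 500 µg/mL 5 of the 42 were higher and 1 lower (median log2 fold change 0.07). That was a smaller share than the 33.3% of all genes called at that dose. The 4 with the smallest p were Mterf4, a factor of mitochondrial ribosome assembly (0.27), Pus1, a tRNA pseudouridine synthase (0.33), Trmu, a tRNA thiolation enzyme (0.26), and Nsun4, a methyltransferase of mitochondrial ribosomal RNA (-0.17). Without replicate 2 of JGT500 this list had 8 higher and 3 lower, where 43.3% of all genes were called. Of 20 cytosolic initiation and elongation factors, 1 was higher (Eef1d, 0.17) and 3 lower (Eif5a, -0.22; Eif2s3x, -0.13; Eef1a2, -0.68) at 500 µg/mL, beside 33.3% of all genes in either direction, with 5 and 5 without replicate 2 of JGT500, beside 43.3%. Eef1a2, a muscle form of the elongation factor, was at only 0.57 CPM in JGT500 and 0.92 CPM in vehicle, and was called higher at 20 and 100 µg/mL (1.06 and 0.93). The myotube list itself had 4 genes higher and 2 lower of 7 at 500 µg/mL, beside 16.5% higher and 16.8% lower of all genes.

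Many cytosolic synthetase genes are known targets of the integrated stress response, in which the factor Atf4 raises amino acid transport, amino acid synthesis and tRNA charging. Atf4 mRNA had log2 fold changes of 0.04, 0.06 and 0.00 at 20, 100 and 500 µg/mL and was not called. Of 35 genes linked to this response, Atf4 among them, 1 was higher and 1 lower at 20 µg/mL, 5 higher and 1 lower at 100 µg/mL, and 4 higher and 10 lower at 500 µg/mL, with medians of 0.08, 0.15 and -0.02. Over all genes, 0.325%, 4.31% and 33.3% were called at these doses. Without replicate 2 of JGT500 the last count was 6 higher and 13 lower, where 43.3% of all genes were called. Slc7a1, a transporter of cationic amino acids, was lower at each dose (-0.27, -0.27 and -0.50). Aldh1l2, a mitochondrial folate enzyme, was higher at 20 and 100 µg/mL (0.26 and 0.29) and lower at 500 µg/mL (-0.31). Vldlr, a lipoprotein receptor, was higher at 100 and 500 µg/mL (0.41 and 0.67), Psat1, an enzyme of serine synthesis, was higher at 100 µg/mL (0.20), and Aldh18a1, an enzyme of proline synthesis, was lower at 500 µg/mL (-0.29).

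Promoter windows of 300 bases (250 before to 50 after the start, RefSeq, GRCm38.p6) were found for 27 of the 36 members. The C/EBP-ATF response element, searched as TGATGNAAN on both strands, occurred in 5 of the 27 (18.5%): Aars, Gars, Iars, Tars and Yars, all cytosolic. It occurred in 4.5% of 27025 genes. Of those 5 members only Iars was called at 500 µg/mL, and the others had -0.10 (Aars), 0.16 (Gars), -0.05 (Tars) and 0.06 (Yars). The motif of NRF1, a factor known for nuclear genes of mitochondrial proteins, searched as GCGCN followed by TGCGC on both strands, occurred in 5 of 27 (Farsb, Iars2, Kars, Mars2 and Tars) and in 5.19% of all genes. The 2 motifs do not overlap in their letters, and a match is a description of the window only. The windows of Lars2, for its rise, and of Iars, for the largest fall among the cytosolic enzymes, are printed with the C/EBP-ATF match in capitals, and that of Lars2 holds neither motif.
Lars2, chr9:123366677-123366976, plus strand: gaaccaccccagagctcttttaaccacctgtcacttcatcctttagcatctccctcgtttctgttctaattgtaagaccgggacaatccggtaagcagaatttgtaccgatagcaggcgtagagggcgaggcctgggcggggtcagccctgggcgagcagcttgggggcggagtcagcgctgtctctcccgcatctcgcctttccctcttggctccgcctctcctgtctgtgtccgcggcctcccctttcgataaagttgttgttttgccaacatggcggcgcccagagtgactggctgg
Iars, chr13:49681880-49682179, plus strand: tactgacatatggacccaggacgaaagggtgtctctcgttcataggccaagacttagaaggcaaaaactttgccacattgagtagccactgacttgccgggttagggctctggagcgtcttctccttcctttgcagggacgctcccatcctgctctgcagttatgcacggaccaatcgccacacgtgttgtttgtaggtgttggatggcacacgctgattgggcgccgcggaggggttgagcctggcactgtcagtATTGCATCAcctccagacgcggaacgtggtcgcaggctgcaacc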

How the data were processed

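The authors deposited expected counts per gene symbol, not normalized. Per the submitters' processing notes, the tools were RSEM 1.3.3, STAR 2.7.3a, Trim Galore 0.6.5 and FastQC 0.11.9, with GRCm38 (mm10); the sources used here give neither annotation nor strand option. Per the labels, libraries were directional and paired-end. Of the deposited counts, 9.34% were not whole (tolerance 0.005); all were rounded. edgeR 4.0.16 (R 4.3.3) kept 14461 genes with filterByExpr, all 36 members among them. TMM factors were 0.988 to 1.02. All libraries entered 1 robust quasi-likelihood fit with a mean per group (biological coefficient of variation 5.31%, 10 residual degrees of freedom). Tests were two-sided, and genes were called at a Benjamini-Hochberg adjusted p below 0.05 over all genes tested. CPM are TMM-scaled. DESeq2 1.42.0 was an alternative. Transcripts of GENCODE M21 were compared with BLAST 2.17.0 (E-value 1e-05). Deviations from the group means of same-numbered JGT100 and JGT500 libraries correlated over genes at 0.107, 0.348 and 0.398. No other pair of groups had all 3 correlations over 0.1, so a block pairing these groups was added as an alternative. Single correlations elsewhere reached 0.351 (vehicle and JGT500, replicate 1), so values of this size also arose where no pairing was assumed. The fit was tested on simulated data. Members and lists were chosen with earlier results of these data known. Named were all members, relatives outside the 36 (1 of them is not reported here), up to 4 called genes per companion list with the smallest p, the ribosomal list and the 8 genes nearest to Lars2. Overlapping and paralogous genes may share counts.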

Additional observations from a re-analysis of the deposited data

How the results depend on the processing

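Alternatives were RLE size factors, library totals only, DESeq2, no filter on low counts, a replicate block, a fit of only the 2 groups compared, leaving out each library and, chosen after seeing the data, a replicate block for JGT100 and JGT500 only. Lars2 kept its value within the spread between replicates under all of them. The count of called members at 20 µg/mL against vehicle was 0, beside 0.325% of all genes. With only the 2 groups in the fit it was 2, beside 2.35%. At 100 µg/mL it was 1, beside 4.31% of all genes. It was 0 with RLE size factors, DESeq2, no filter or the replicate block, beside 4.30%, 4.18%, 2.69% and 4.02%. Only the 2 groups gave 5, beside 9.69%, and leaving out 1 library gave 0, beside 2.15% to 2.80%. At 500 µg/mL it was 11, with 7 to 17 without 1 library and 8 to 10 under the other settings. The shares of all genes were 33.3%, 25.4% to 43.3% and 18.8% to 34.0%. For vehicle over non-treated it was 0, then 2 with DESeq2, 2 without the filter and 6 with only the 2 groups. The shares of all genes were 1.31%, 2.21%, 1.18% and 7.37%. JGT500 over JGT100 gave 6, then 2 with only the 2 groups and 11 with the block for these groups alone. Without 1 library it gave 2 to 13. The shares of all genes were 19.7%, 9.22%, 24.6% and 12.8% to 34.1%. JGT500 over JGT20 gave 5, then 3 with only the 2 groups and 3 to 14 without 1 library. There the shares were 23.3%, 14.1% and 17.3% to 35.4%. The cause of these shifts was not tested. Over single members, 2847 results stayed on their side of the threshold, 67 lost a call and 61 gained one, and no called value changed sign. For the other pairs of groups the correlations of same-numbered libraries were mixed, from -0.594 to 0.351, so the numbers were not taken to pair them. With the replicate block over all 5 groups the counts were 10 at 500 µg/mL, 6 for JGT500 over JGT100 and 5 for JGT500 over JGT20. In that fit 32.9%, 18.9% and 22.4% of all genes were called.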
